A study of Caenorhabditis elegans with 11 samples.

Results

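Knockdown of prp-8 in wild-type larvae of Caenorhabditis elegans was compared with a gfp control for 475 genes, which are all the genes of the deposited N2 tables. The submitters listed 66 of them as lower and all the others as higher in the pooled N2 knockdowns, and the tables of the 3 strains hold 1106 entries in all. Whole N2 (wild type) animals were fed bacteria carrying an RNA interference (RNAi) clone from L1 for 24 h at 20 °C and are labelled as L3 larvae. The groups were prp-8 RNAi, prp-6 RNAi, prp-31 RNAi and gfp RNAi, each with 1 library of poly(A)-enriched RNA, and N2 carries no gfp target. The smg-1(r861) mutant, which lacks a kinase of nonsense-mediated mRNA decay, gave larval libraries with the same clones under the same conditions. The glp-4(bn2) mutant gave prp-8, prp-31 and gfp libraries from adults of day 5 grown at 25 °C, which spent 72 h on OP50 before 48 h of feeding on the clone. The titles of these glp-4 libraries say L3, against their stage field and the design text.

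PRP-8 lies at the catalytic centre of the spliceosome, the machine that removes introns from messenger RNA precursors. It enters the spliceosome as a U5 protein of the U4/U6.U5 tri-snRNP, the particle to which PRP-6 and PRP-31 also belong. L3 larvae grow, build the cuticle of the next stage from collagens secreted by the hypodermis, and expand the germ line.

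Values are the authors' FPKM, fragment counts scaled to transcript length and library size. A ratio is (prp-8 + 1)/(gfp + 1), so folds of genes with few fragments are understated, and no difference has a replicate check or a test. In RNA of whole animals, fewer cells of a type and less RNA per cell cannot be told apart. The prp-8 library was itself part of the pool on which the genes were chosen, so the direction of a list is no independent evidence. The prp-8 gene is not in the tables, so its own knockdown could not be checked here. In 8 entries the single-library values disagree with the authors' pooled columns by more than 2-fold, or a knockdown is listed at 0 against a pooled value above 5 FPKM, and these entries are named where they touch a result.

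The list of higher genes was divided by prp-8 RNAi. Of its genes, 173 (42.3%) were at least 2-fold above gfp and a further 106 were above it by less, making 68.2% above in all. The other 130 (31.8%) were below gfp, 46 of them (11.2%) by at least 2-fold. The median log2 ratio was 0.65, the middle part of the genes lay between -0.23 and 1.70 (quartiles), and the extremes were 7.96 and -5.22. The list of lower genes was uniform by comparison. All 66 (100%) were below gfp, 58 of them (87.9%) by at least 2-fold, with a median log2 ratio of -1.39. A pseudocount of 5 FPKM left 22 genes of the higher list and 36 of the lower list at least 2-fold below gfp, and the higher median was then 0.30, against 1.04 with a pseudocount of 0.1 FPKM. In the higher list 118 genes were at least 2-fold above gfp with 5 FPKM and 208 with 0.1 FPKM, in place of 173. With 0.1 FPKM 65 were at least 2-fold below. The share of 42.3% used below thus depends on the pseudocount.

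**Figure D1:**
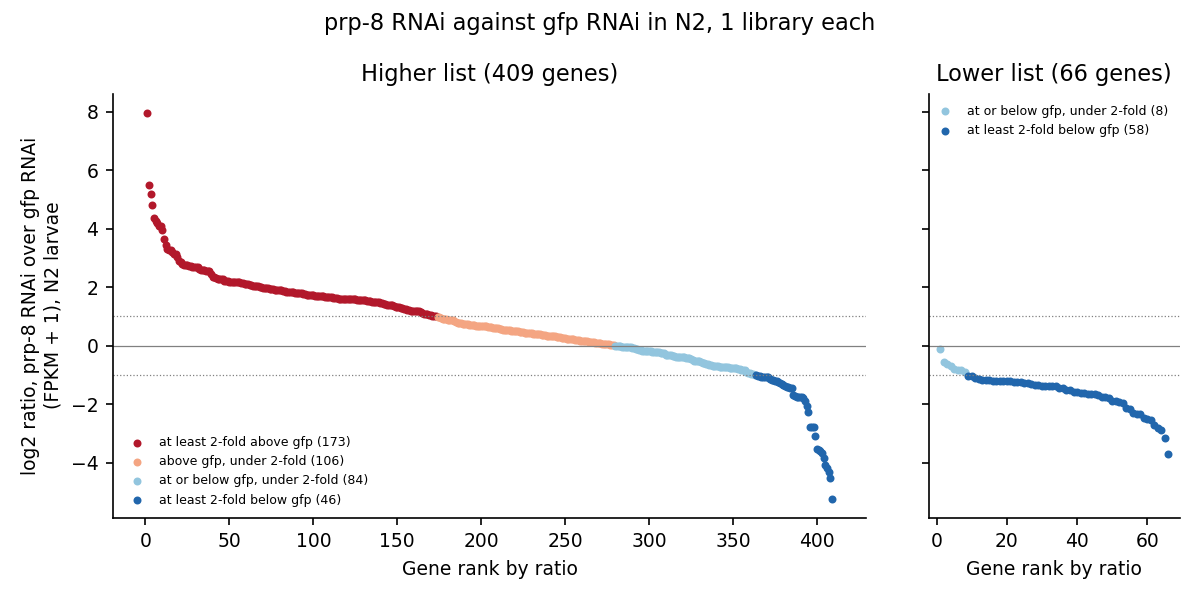
Genes of the higher list (left) and of the lower list (right, 66) ranked by the log2 ratio of FPKM + 1 in prp-8 RNAi over gfp RNAi in N2 larvae, 1 point per gene, with dotted lines at 2-fold. The higher list runs from 7.96 to -5.22 and crosses 0 after 279 genes, whereas every point of the lower list is below 0.

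The listed genes of the splicing machinery were nearly all higher with prp-8 than with gfp RNAi, and by similar factors. Of the 11 splicing genes in the higher list, 10 were at least 2-fold above gfp, beside 42.3% of the whole list, with a median log2 ratio of 1.66 over the 11 beside 0.65. Among them prp-38, a factor that activates the assembled spliceosome, had 70.2 FPKM with prp-8, 55.7 with prp-6, 28.0 with prp-31 and 18.4 with gfp RNAi. The helicase gene ddx-23, homologue of yeast PRP28, had 102 FPKM with prp-8, 93.3 with prp-6, 43.3 with prp-31 and 27.8 with gfp RNAi. The gene eftu-2, for the U5 GTPase that contacts PRP-8, had 168 FPKM with prp-8, 157 with prp-6, 81.5 with prp-31 and 53.7 with gfp RNAi. In each of these genes the prp-8 and prp-6 libraries were the 2 highest and gfp was the lowest.

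Components of other splicing steps lay in the same range. The helicase genes mog-4 and mog-5, homologues of yeast PRP2 and PRP22, were 3.17-fold and 2.99-fold above gfp. The gene emb-4, for the worm aquarius helicase, was 3.07-fold above, F53B7.3 (isy-1) 3.57-fold and R08D7.1 (bud-13) 3.47-fold. The Sm core protein gene snr-5 had 193 FPKM with prp-8, 200 with prp-6, 109 with prp-31 and 68.2 with gfp RNAi, and was higher with prp-6 than with prp-8. The knockdown target prp-31 had 144 FPKM with prp-8, 133 with prp-6, 25.3 with prp-31 and 40.6 with gfp RNAi, so it was below gfp only in the library in which it was targeted. The member that differed was the cyclophilin gene cyn-17, with 4.71 FPKM with prp-8, 30.7 with prp-6, 10.4 with prp-31 and 5.33 with gfp RNAi. Another cyclophilin gene, cyn-9, was the splicing member of the lower list, with 2.96 FPKM with prp-8, 3.18 with prp-6, 4.29 with prp-31 and 8.66 with gfp RNAi.

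A further 11 spliceosome and exon junction genes were recognised from RefSeq names after their values had been seen, so they are no separate support. All 11 were at least 2-fold above gfp, beside 42.3% of the whole list. Their log2 ratios ran only from 1.56 to 1.97. The top of the range was Y65B4A.6, which RefSeq names eif-4A3 (the helicase core of the exon junction complex), with 113 FPKM with prp-8, 78.6 with prp-6, 48.4 with prp-31 and 28.1 with gfp RNAi. The others included plrg-1 at 3.37-fold, C50F2.3 (syf-1) at 3.20-fold, F19F10.9 (snu-66, another tri-snRNP protein gene) at 3.06-fold and rsr-2 at 3.01-fold. The summed FPKM of the 11 genes was 949.5 with prp-8, 800 with prp-6, 438 with prp-31 and 289 with gfp RNAi. With the authors' pooled gfp value as the base their median log2 ratio was 1.35 in place of 1.61.

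Genes of neighbouring steps were higher by a similar factor. Another 10 genes of RNA synthesis and export were also grouped after their values had been seen. All were at least 2-fold above gfp, beside 42.3% of the whole list, with a median log2 ratio of 1.63. The mRNA export adaptor gene aly-1 had 191 FPKM with prp-8, 157 with prp-6, 71.5 with prp-31 and 45.0 with gfp RNAi. The nuclear pore genes npp-22 and npp-3 were 3.46-fold and 3.24-fold above gfp, the Elongator gene elpc-3 3.20-fold, and the Integrator genes ints-6 and Y48G10A.4 (ints-8) 2.81-fold and 3.02-fold. The shared RNA polymerase subunit gene rpb-5 was the lowest of the group at 2.39-fold, and with 240 FPKM in prp-8 against 267 FPKM in prp-6 larvae it was one of the genes not highest with prp-8. No gene of the mRNA decay, heat shock, proteasome or ribosomal protein lists was among the 475.

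**Figure D2:**
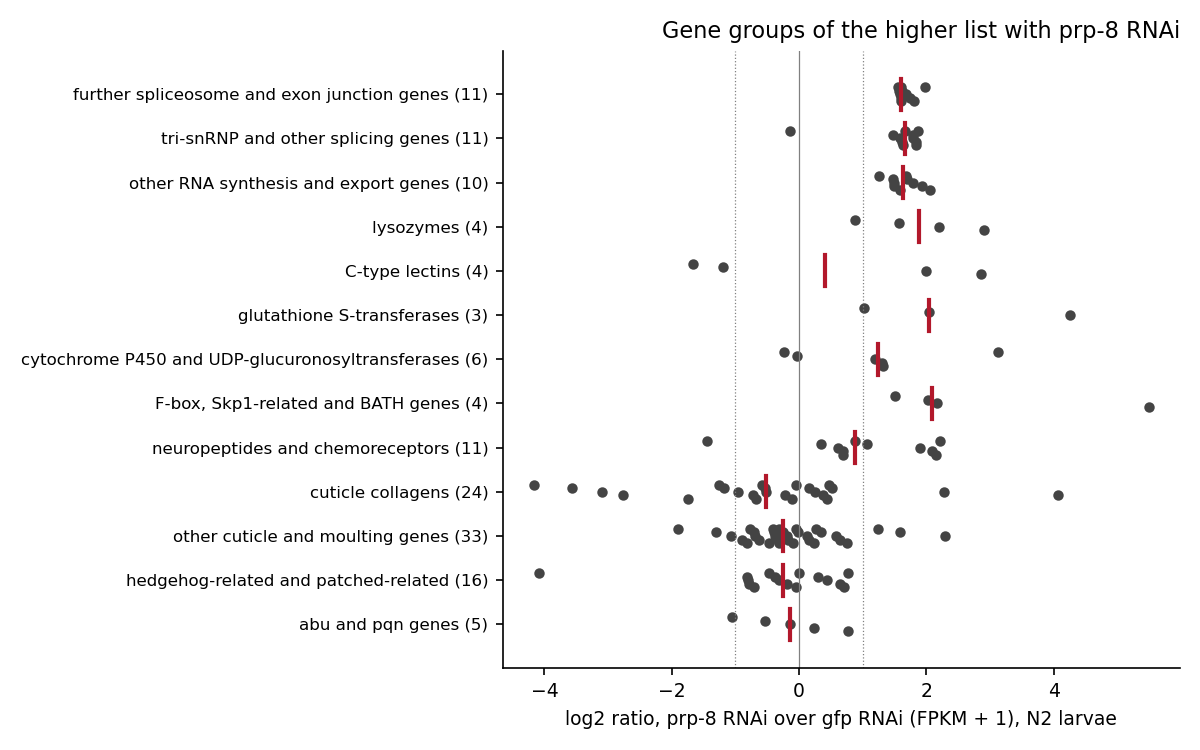
Log2 ratio of FPKM + 1 in prp-8 RNAi over gfp RNAi for members of 13 gene groups of the higher list, with 1 point per gene, the number of genes in brackets and the median as a red bar. The further spliceosome group and the RNA synthesis group were drawn up after values were seen. The splicing and RNA synthesis groups have medians of 1.61 to 1.66, with cyn-17 at -0.15 apart from the other splicing genes, whereas cuticle collagens spread from -4.17 to 4.08 around a median of -0.52.

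Checkpoint and cell death genes were few. The checkpoint kinase gene atl-1 (worm ATR) was 6.11-fold above gfp, at 55.0 FPKM with prp-8 against 8.17 FPKM with gfp RNAi. The BH3-only gene egl-1, which starts programmed cell death, was 6.95-fold above gfp with prp-8 RNAi. Its 9.41 FPKM with prp-8 stood apart from 1.23 with prp-6, 1.02 with prp-31 and 0.497 with gfp RNAi. The third member, ced-11, had 3.56 FPKM with prp-8, 7.06 with prp-6, 3.26 with prp-31 and 1.17 with gfp RNAi, and so had its highest value with prp-6.

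Genes of xenobiotic and pathogen responses held several of the highest ratios. All 3 glutathione S-transferase genes were at least 2-fold above gfp, beside 42.3% of the whole list. Of these gst-24 had 523 FPKM with prp-8, 263 with prp-6, 62.4 with prp-31 and 26.4 with gfp RNAi (chromosome II, deposited interval 13611156 to 13611342, within the annotated gene), and its neighbour gst-15 had 35.7, 20.3, 7.49 and 7.87 FPKM in the prp-8, prp-6, prp-31 and gfp libraries. These neighbours are related in sequence and may share reads. The third, gst-10, was only just above the 2-fold limit, at 2.02-fold. The P-glycoprotein gene pgp-8, for an ABC efflux transporter, had 22.6 FPKM with prp-8, 6.90 with prp-6, 1.08 with prp-31 and 0.513 with gfp RNAi. Of 6 cytochrome P450 and UDP-glucuronosyltransferase genes 4 were at least 2-fold above gfp (42.3% in the whole list), led by ugt-39 at 29.0 FPKM with prp-8, 11.1 with prp-6, 3.61 with prp-31 and 2.43 with gfp RNAi. The 2 members of this family in the lower list, ugt-26 and ugt-35, were 0.418-fold and 0.491-fold the gfp value.

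Lysozyme genes, whose products digest bacterial cell walls, were all above gfp, 3 of 4 by at least 2-fold, beside 68.2% and 42.3% of the whole list. The gene lys-7 had 670 FPKM with prp-8, 214 with prp-6, 115 with prp-31 and 88.4 with gfp RNAi, and lys-1 was 4.60-fold and lys-4 2.96-fold above gfp. The summed FPKM of the 4 genes was 3135 with prp-8, 1648 with prp-6, 872 with prp-31 and 663 with gfp RNAi. The C-type lectin genes were split. The gene clec-52 had 56.1 FPKM with prp-8, 32.5 with prp-6, 7.89 with prp-31 and 6.84 with gfp RNAi, and clec-125 was 3.98-fold above gfp. In contrast clec-230 had 2.93 FPKM with prp-8, 132 with prp-6, 35.6 with prp-31 and 11.5 with gfp RNAi, and clec-229 had 0.224, 15.8, 5.45 and 1.80 FPKM in the prp-8, prp-6, prp-31 and gfp libraries. Both were therefore lowest with prp-8 and highest with prp-6. Of 5 other immunity genes 3 were at least 2-fold above gfp (42.3% in the whole list), namely C31B8.4 (pals-32) at 4.39-fold, dod-3 at 3.76-fold and C32H11.1 (irg-6) at 2.85-fold. The neuropeptide-like protein gene nlp-34 went the other way, with 11.2 FPKM with prp-8, 296 with prp-6, 81.3 with prp-31 and 32.2 with gfp RNAi.

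F-box genes, which encode substrate adaptors of ubiquitin ligases, were at least 2-fold above gfp in 4 of 4 members of the higher list, beside 42.3% of all its genes. The second highest log2 ratio of all 475 genes, 5.50, belonged to fbxa-163, with 59.4 FPKM with prp-8, 35.2 with prp-6, 2.24 with prp-31 and 0.334 with gfp RNAi (chromosome II, deposited interval 1610519 to 1610715, within the annotated gene). The genes fbxa-158 and fbxa-182 were 4.51-fold and 4.06-fold above gfp. The lower list held fbxa-14 and fbxa-72, at 0.260-fold and 0.447-fold the gfp value. Of 11 neuropeptide and chemoreceptor genes 10 were above gfp (68.2% in the whole list) and 5 at least 2-fold above, a share near that of the whole list (42.3%). The insulin-like genes ins-33 and ins-35 had 121 and 75.1 FPKM in prp-8 larvae, against 25.3 and 19.4 FPKM in gfp larvae.

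Many of the largest ratios belonged to genes without a functional name. Of the 188 genes of the higher list that carry only a sequence name, 80 were at least 2-fold above and 24 at least 2-fold below gfp, close to the shares of the whole list. The gene C50F7.5 had 466 FPKM with prp-8, 28.3 with prp-6, 20.9 with prp-31 and 21.7 with gfp RNAi, so that prp-8 alone stood apart. C55A1.6 had the same form, with 105 FPKM with prp-8, 6.78 with prp-6, 2.97 with prp-31 and 2.74 with gfp RNAi. In F08G2.5 the prp-8 and prp-6 libraries lay together, at 818 and 717 FPKM, above 87.5 with prp-31 and 43.7 with gfp RNAi. The most abundant transcript of the list with prp-8 was Y119D3B.21, at 7187 FPKM with prp-8, 3001 with prp-6, 1176 with prp-31 and 1079 with gfp RNAi. The highest log2 ratio of all, 7.96, was that of Y65B4A.11, annotated as a small nucleolar RNA, which is listed at 0 with gfp RNAi, so no fold is stated. In all, 28 genes of the higher list are listed at 0 with gfp.

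Some genes departed from gfp with prp-8 far more than with either other clone. The collagen gene col-101 had 34.1 FPKM with prp-8, 1.32 with prp-6, 1.60 with prp-31 and 1.08 with gfp RNAi, a log2 ratio of 4.08 that exceeded the higher of the other clones by 3.76. The chitinase-like gene R09D1.5 (chil-18) had 5.82 FPKM with prp-8, 0.407 with prp-6, 0.459 with prp-31 and 0.397 with gfp RNAi. The gene scl-2, for a secreted protein of the SCP family, had 383 FPKM with prp-8, 99.4 with prp-6, 33.4 with prp-31 and 29.4 with gfp RNAi. These 3 genes were listed on the pooled knockdowns although prp-31, and for col-101 and chil-18 also prp-6, lay near gfp.

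Cuticle collagens, the main structural proteins of the worm's exoskeleton, were spread to both sides of gfp and mostly below it with prp-8 RNAi. Of the 24 in the higher list, 2 were at least 2-fold above gfp (42.3% in the whole list), 16 were below it (31.8% in the whole list) and 7 at least 2-fold below (11.2%). The median log2 ratio was -0.52, and -0.80 on the authors' pooled gfp value. The summed FPKM of the 24 genes was 2453 with prp-8, 22608 with prp-6, 6295 with prp-31 and 3065 with gfp RNAi. The sum was thus below gfp in the prp-8 library and above it in both others. A collagen below gfp with prp-8 could enter the list only through the other clones, so this contrast follows in part from how the list was made. The sums include col-17 and col-90, whose library values disagree with the pooled columns.

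The collagens farthest below gfp were highest with prp-6, and they could be listed only through a clone other than prp-8. The gene col-54 had 3.18 FPKM with prp-8, 428 with prp-6, 229 with prp-31 and 74.2 with gfp RNAi, which makes it 18.0-fold lower with prp-8 than with gfp (chromosome I, deposited interval 5842714 to 5844057, 3 exons in the annotation). The gene col-109 had 3.52 FPKM with prp-8, 272 with prp-6, 145 with prp-31 and 52.6 with gfp RNAi, and col-58 had 0.876 FPKM with prp-8, 93.1 with prp-6, 47.7 with prp-31 and 15.0 with gfp RNAi. In all 3 the order was prp-6, prp-31, gfp and then prp-8. The abundant collagen col-73 had 102 FPKM with prp-8, 2046 with prp-6, 994 with prp-31 and 342 with gfp RNAi. The body-shape collagens named from their mutants lay nearer to gfp: sqt-3, rol-6, dpy-13 and dpy-5 were 1.30-fold, 0.969-fold, 0.699-fold and 0.629-fold the gfp value, while all 4 were above 1000 FPKM with prp-6. Among the collagens, col-17 and col-90 belong to the 8 entries with disagreeing pooled columns, and col-182 is annotated as a pseudogene.

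**Figure D3:**
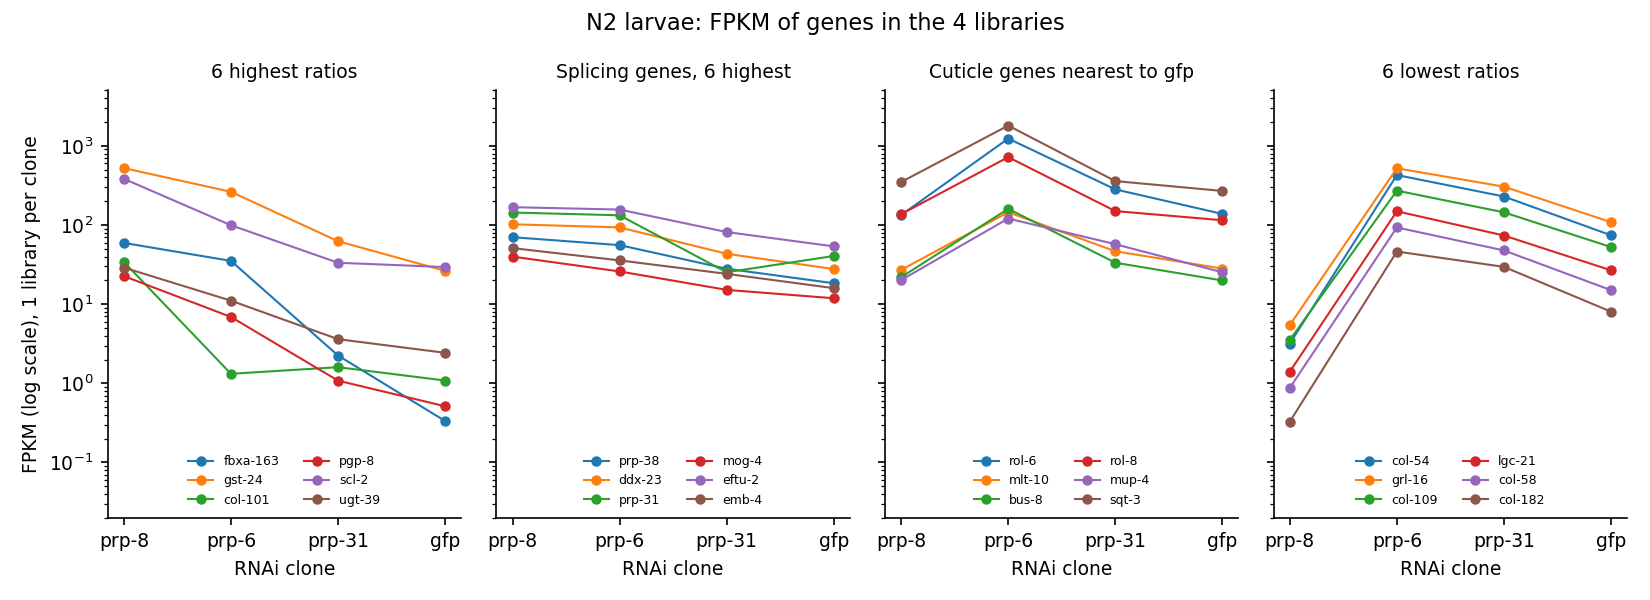
FPKM on a log axis in the prp-8, prp-6, prp-31 and gfp RNAi libraries of N2 larvae for 24 genes in 4 panels, 1 line per gene and 1 library per point. Panels show the highest ratios, the splicing genes with the highest ratios, the cuticle genes of at least 10 FPKM with gfp whose ratio is nearest to 0, and the lowest ratios, among genes with a functional name. In the cuticle panel every line peaks at prp-6, and in the last panel every line is lowest at prp-8, for example col-54 at 3.18 FPKM.

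Other cuticle and moulting genes were less spread. Of 33 such genes 22 were below gfp (31.8% in the whole list) and 3 at least 2-fold above (42.3%), with a median log2 ratio of -0.25. Another 3 were at least 2-fold below, a share near that of the whole list (11.2%). The moulting gene mlt-10 had 27.1 FPKM with prp-8, 145 with prp-6, 46.6 with prp-31 and 28.1 with gfp RNAi, so prp-8 and gfp were alike. The astacin protease gene nas-23 had 0.169 FPKM with prp-8, 21.5 with prp-6, 11.5 with prp-31 and 3.35 with gfp RNAi, and nas-14 and agmo-1 were 0.475-fold and 0.404-fold the gfp value. The members above gfp by 2-fold were chil-18, the chondroitin proteoglycan gene cpg-2 at 3.02-fold and cut-6 at 2.36-fold. Some of these 33 genes are also patched-related genes.

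Hedgehog-related and patched-related genes, which encode secreted proteins and membrane proteins of the worm's epithelia, had similar counts. None of the 16 was at least 2-fold above gfp (42.3% in the whole list), 11 were below it (31.8%), and the median log2 ratio was -0.25. The exception in size was grl-16, with 5.45 FPKM with prp-8, 521 with prp-6, 305 with prp-31 and 109 with gfp RNAi, or 17.0-fold lower with prp-8 than with gfp. The highest members were grl-15 and qua-1, at 1.70-fold and 1.63-fold the gfp value. The 5 abu and pqn genes had a median of -0.14 and ran from pqn-32 at 1.70-fold to abu-12 at 0.480-fold.

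The 46 genes at least 2-fold below gfp held more than matrix genes. The lowest was K01D12.9, with 0.839 FPKM with prp-8, 282 with prp-6, 224 with prp-31 and 67.8 with gfp RNAi, which is 37.4-fold lower with prp-8 than with gfp (chromosome V, deposited interval 12404519 to 12404644, within the annotated gene). The ligand-gated channel gene lgc-21 had 1.40 FPKM with prp-8, 149 with prp-6, 73.7 with prp-31 and 26.8 with gfp RNAi. The neighbouring genes R12E2.15 and R12E2.14 had 13.0 and 14.0 FPKM in prp-8 larvae, against 197 and 190 FPKM in gfp larvae. Their coding sequences are both 222 bases long, and reads of such near neighbours may have been shared. The gene mab-7, needed for the shape of male tail rays, had 1.60 FPKM with prp-8, 78.7 with prp-6, 20.0 with prp-31 and 5.98 with gfp RNAi. In this class the median FPKM was 2.95 with prp-8, 93.4 with prp-6, 36.2 with prp-31 and 13.1 with gfp RNAi.

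Of these 46 entries, npp-5 and B0464.6 are doubtful. Both are listed at 0 with prp-8, against 18.7 and 22.2 FPKM with gfp, while the authors' deposited table gives pooled knockdown FPKM of 44.9 and 64.6. In smg-1 larvae npp-5 had 46.3 FPKM with prp-8 against 15.7 FPKM with gfp RNAi. Without the 8 disagreeing entries 171 genes of the higher list were at least 2-fold above gfp and 44 at least 2-fold below, and 126 were below in all. In the authors' deposited table, q-values below 0.05 belonged to 34 genes of the whole higher list. They were 21 of the 173 genes at least 2-fold above gfp and 8 of the 106 above it by less. Below gfp they were 1 of the 84 by less than 2-fold and 4 of the 46 by at least 2-fold (F40E10.5, ZK180.6, mab-7 and R74.2). Low q-values were thus not particular to the extreme classes, and those q-values are for the pooled knockdowns.

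The clones share the gfp library, so their values are only set side by side. In the higher list 343 genes (83.9%) were at least 2-fold above gfp with prp-6, with a median log2 ratio of 2.05, and 118 (28.9%) with prp-31, with a median of 0.67. The prp-8 library was the highest of the 3 knockdowns in 156 genes, the lowest in 205 and between the others in 48. The prp-6 library was the highest in 250 genes and the prp-31 library in 3. Among the 173 genes at least 2-fold above gfp, the medians were 1.83 with prp-8, 1.25 with prp-6 and 0.46 with prp-31, and prp-8 was highest in 148. The class was set by the prp-8 ratio, so the high rank of prp-8 in it follows in part from that choice. Among the 46 at least 2-fold below, the medians were -1.70 with prp-8, 2.60 with prp-6 and 1.45 with prp-31. Of those 46 genes, 44 were at least 2-fold above gfp with prp-6 and 43 with prp-31. A gene below gfp with prp-8 could enter the list only through the other clones, so this contrast follows in part from how the list was made.

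**Figure D4:**
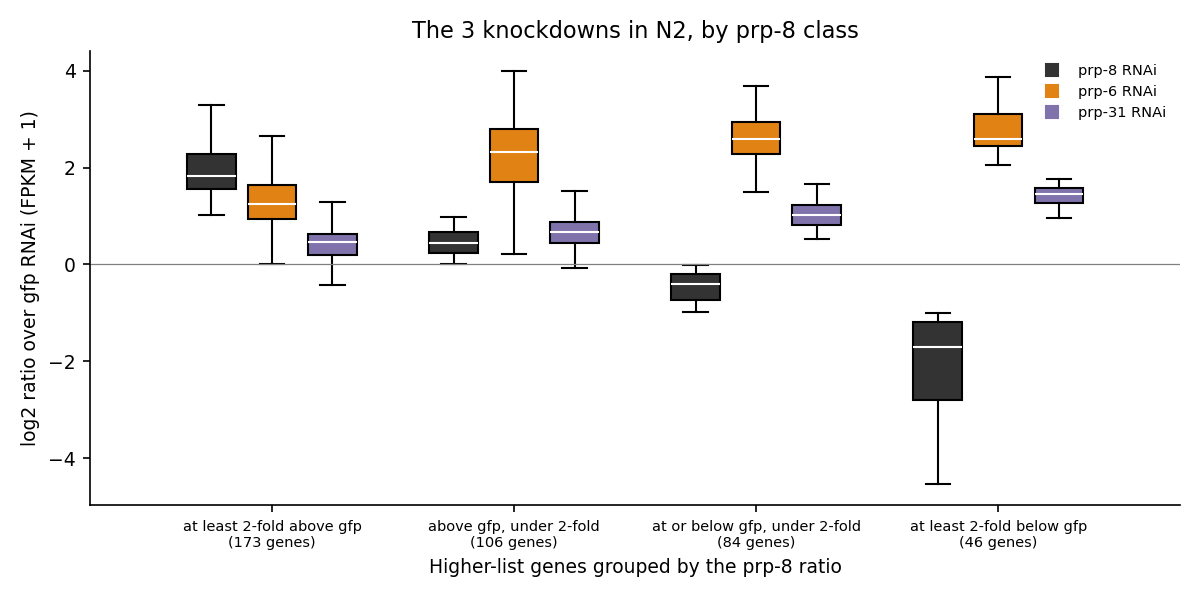
Log2 ratio of FPKM + 1 over gfp RNAi for prp-8, prp-6 and prp-31 RNAi in N2 larvae, with the genes of the higher list grouped by their prp-8 ratio (boxes: quartiles, line: median, whiskers: farthest gene within 1.5 times the quartile range, genes beyond not drawn). From left to right the prp-8 median goes down from 1.83 to -1.70, as the grouping sets. In the same order the prp-6 medians are 1.25, 2.31, 2.59 and 2.60 and those of prp-31 0.46, 0.67, 1.02 and 1.45.

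The genes of the lower list included members of small RNA pathways, the germ line and metabolism. All 3 small RNA genes were at least 2-fold below gfp, as were 87.9% of the whole lower list. The Piwi-type gene prg-2, annotated as a pseudogene and similar to prg-1, had 2.69 FPKM with prp-8, 2.83 with prp-6, 8.64 with prp-31 and 19.8 with gfp RNAi. The germline Argonaute gene wago-1 had 8.54 FPKM with prp-8, 10.3 with prp-6, 20.7 with prp-31 and 28.0 with gfp RNAi, and the Argonaute gene hpo-24 (alg-5) was 0.437-fold the gfp value. In all 3 the prp-8 library was the lowest.

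Genes known for germline expression were grouped from the lower list only, after their values had been seen. Their direction was thus set by the choice of list. Of the 8 genes 7 were at least 2-fold below gfp, about the share of the whole lower list (87.9%). They were the P-granule helicase gene glh-2 at 2.36 FPKM with prp-8, 2.56 with prp-6, 5.86 with prp-31 and 10.4 with gfp RNAi, the RNA-binding protein genes daz-1 and spn-4 at 0.321-fold and 0.394-fold, the phosphatase gene cdc-25.1 at 0.390-fold, cyk-7 at 0.320-fold, and wago-1 and prg-2. The kinase gene plk-2 was nearest to gfp, at 0.576-fold. The eggshell gene cpg-2 is in the higher list, with a log2 ratio of 1.59, and was not in the group. Of the germline marker list only glh-2 and msp-64 were among the 475, both in the lower list, with msp-64 listed at 0 in the 3 knockdowns and at 0.765 FPKM with gfp RNAi. The only name match of the intestine marker list (pgp-8) was in the higher list. So was che-14 (1.18-fold), the only name match of both the neuron and the hypodermis marker lists, which therefore marks neither tissue by itself. No muscle marker was listed. The share of germ cells in each library was not measured, and its part in these values was not tested.

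Metabolic and other members of the lower list were below gfp by factors that differed widely. The peroxisomal membrane gene prx-11 had 47.7 FPKM with prp-8, 84.1 with prp-6, 135 with prp-31 and 212.5 with gfp RNAi. The gene haao-1, of the kynurenine pathway, had 6.51 FPKM with prp-8, 9.47 with prp-6, 28.0 with prp-31 and 35.6 with gfp RNAi. The histone H3 gene his-32 had 1.03 FPKM with prp-8, 2.33 with prp-6, 8.26 with prp-31 and 13.2 with gfp RNAi. Histone genes have near-identical copies, so reads may have been divided among them. The collagen gene col-93 had 81.3 FPKM with prp-8 and 730 FPKM with gfp RNAi, but the authors' pooled gfp value is 63.0 FPKM, and its fold is not relied on. The gene nearest to gfp was lpr-6, a lipocalin-related gene, with 106 FPKM with prp-8, 46.5 with prp-6, 15.9 with prp-31 and 115 with gfp RNAi.

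The same clone in smg-1 larvae has a gfp library of its own. Of the 475 genes 147 were also in the smg-1 tables (30.9% of the N2 genes, 30.3% of the 485 smg-1 genes), and 143 had the same direction with prp-8 in both strains. Across these genes the ratios had a Pearson correlation of 0.91 and a Spearman correlation of 0.85, as a description, since both lists were selected by the authors. Without the disagreeing entries the Pearson value was 0.94. These values join the higher and lower lists, which widens the range of ratios. Among the 124 genes listed as higher in both strains, the Pearson value was 0.81 and the Spearman value 0.75. Most shared genes were on the same side in the lists of both strains, so their like direction was largely set by the choice of genes. The 124 genes listed as higher in both had median log2 ratios of 1.92 in N2 and 1.79 in smg-1, and the 17 listed as lower in both -1.64 in N2 and -1.65 in smg-1.

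The shared genes lay mostly in the class with the highest prp-8 ratios. Of the 173 genes at least 2-fold above gfp in N2, 117 (67.6%) were in the smg-1 higher list, against 2 of 106 (1.89%), 2 of 84 (2.38%) and 3 of 46 (6.52%) in the classes in order of falling ratio. Of the 58 lower genes at least 2-fold below gfp, 16 (27.6%) were in the smg-1 lower list, near the 25.8% of the whole N2 lower list. The smg-1 lists were themselves chosen on a pool that included prp-8 RNAi, and the median log2 ratio of the smg-1 higher list was 1.57 with prp-8, 0.89 with prp-6 and 0.40 with prp-31. Among the added spliceosome genes 10 of 11 were in the smg-1 higher list, for example R11A8.2 (gkow-1) at a log2 ratio of 1.81 in N2 and 2.23 in smg-1. Of the 24 collagens col-101 and col-56 were in the smg-1 higher list, beside 30.3% of the whole N2 higher list. Only 2 of the 24 were at least 2-fold above gfp, the class with most of the shared genes, so a low count goes with their class. The log2 ratio of col-101 was 4.08 in N2 and 2.94 in smg-1.

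A few shared genes differed in size between the strains. The lectin gene clec-52 had log2 ratios of 2.87 in N2 and 3.91 in smg-1, and the Na+/H+ exchanger gene nhx-6 had 2.17 in N2 and 0.27 in smg-1. In smg-1 larvae nhx-6 had 0.301 FPKM with prp-8 and 0.0796 with gfp RNAi. Both are under the pseudocount of 1 FPKM, so its ratio there is understated and the strain difference is not relied on. The gene hacd-1, for a hydroxyacyl-CoA dehydrogenase, had 2.55 in N2 and 1.11 in smg-1. Of the shared genes 133 lay within 1 log2 unit of each other in the 2 strains.

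**Figure D5:**
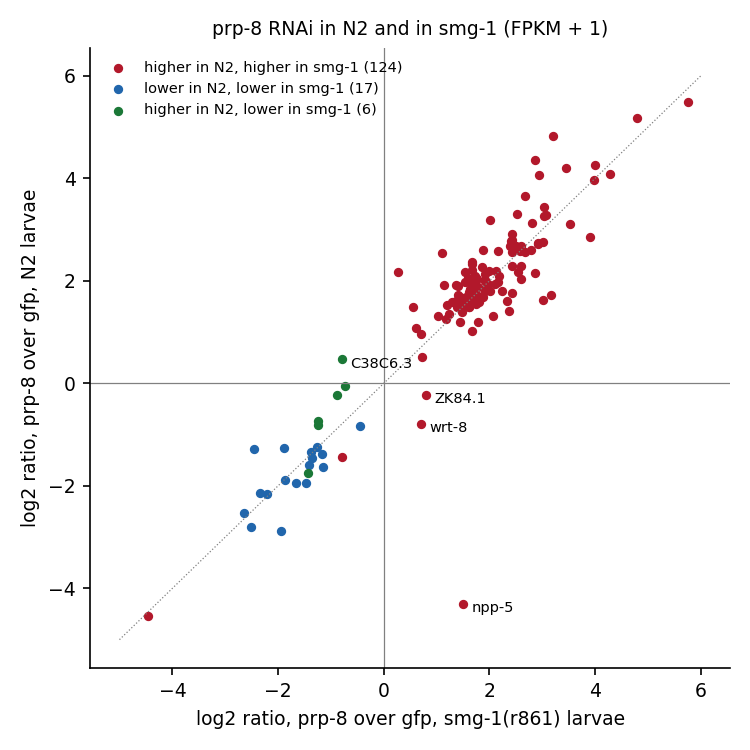
Log2 ratio of FPKM + 1 in prp-8 RNAi over gfp RNAi in N2 larvae (vertical) against smg-1(r861) larvae (horizontal) for the 147 genes listed in both strains, with the dotted line marking equal ratios. The 143 genes of like direction lie in the lower left and upper right; the 4 named points lie apart from them, and npp-5, at -4.30 in N2, is listed at 0 with prp-8 there.

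The glp-4 adults differ in stage, temperature and time on the clone, and only 12 of the 475 genes were listed for them, 9 with the same direction. Of the 12, 4 were in the higher lists of both strains and 5 in the lower lists of both. Their like direction was thus largely set by the choice of genes. C50F7.5 had 308 FPKM with prp-8 against 121 FPKM with gfp RNAi there, and wago-1 had 3.55 FPKM with prp-8 against 18.6 FPKM with gfp RNAi. The eggshell gene cpg-2 had opposite directions, with a log2 ratio of 1.59 in N2 larvae and -2.69 in glp-4 adults.

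Gene structure and position differed somewhat between the classes of the higher list, as a description. Genes at least 2-fold above gfp had a median of 4 exons, those above by less 6, those below by less 7.5 and those at least 2-fold below 4, against 5 over all 19985 protein-coding genes of the annotation. The share of coding genes with at most 3 exons was 32.9%, 23.3%, 15.5% and 37.8% in the same classes, against 27.7% over all. Both extreme classes thus held more genes of few exons than the classes between. Chromosome V carried 31.8% of the genes at least 2-fold above gfp, 26.4% of the whole higher list and 25.0% of all coding genes. It also carried 34.5% of the lower genes at least 2-fold below gfp, so a high share was not particular to the class above gfp. The shares of listed genes include non-coding ones. There were 24 pairs of the higher list next to each other in the genome, and 20 of them had the same direction with prp-8. As 68.2% of the whole list was above gfp, many pairs would share a direction in any case, and that share was not computed. The pair prp-38 and plrg-1 on chromosome V was alike at log2 ratios of 1.88 and 1.75, whereas ceh-12 and col-54 on chromosome I were opposite, at 0.41 and -4.17, with ceh-12 listed at 0 with gfp. Clusters of related genes can share reads, so a pair does not count as 2 independent genes.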

How the data were processed

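RNA of whole worms was enriched for poly(A) and sequenced as pairs of 73 bp reads, per the labels' protocols, which give a minimum of reads for all samples together. Depth per library is not known more closely, so no counting interval is given. The authors deposited FPKM per library, pooled FPKM of knockdowns and of gfp, and their log2 ratio with p-value and q-value, per the file headers; every N2 entry has P of at most 0.01. A deposited test statistic, a score, was not used. Cufflinks and Cuffdiff made the values, per the submitters' processing notes; for versions, aligner, genome build and annotation: not given in the sources used here.

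From the single-library FPKM, log2((prp-8 + 1)/(gfp + 1)) was computed per gene, with a pseudocount of 1 FPKM, and called at 2-fold. With 1 library per group there was no test and no p-value. The pooled gfp column was a median of 0.27 log2 above the gfp library (367 genes). Members and the 31 gene lists were chosen with earlier results of these data known; 3 further lists, the rule for disagreeing entries (8 of 475) and the tolerances below were chosen after values were seen. List members were taken by name and need not have the function of the list. Named genes were all listed splicing, checkpoint, apoptosis, target and small RNA members, the 10 highest and 10 lowest named genes of the higher list, the 10 lowest and 4 highest of the lower list, 3 at each end of each other list, 6 at each end of the difference from the other clones, and genes listed in all strains. Those present were named as far as the text needs them, and K01D12.9, R12E2.15, R12E2.14, C50F7.5, C55A1.6, F08G2.5, Y119D3B.21, Y65B4A.11, mab-7, F40E10.5, ZK180.6, R74.2, nhx-6, plrg-1 and the other members of the added lists were chosen after their values were seen.

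RefSeq (WBcel235) names matched 471 of 475 genes; Ensembl release 115 gave exons and coding length. Of the deposited intervals, whose build the files do not name, 3 lay apart from the RefSeq gene, many others span part of a gene (294 within it), and coordinates are printed as deposited. Alternatives were pseudocounts of 0.1 and 5 FPKM, a mean of at least 1 FPKM, entries with a 0 left out (36), the pooled gfp column, and the disagreeing entries left out. In a test on simulated data of the size of the higher list, medians were recovered to within 0.02 log2. Python 3.11.15, numpy 2.4.6, pandas 2.3.3, scipy 1.17.1 and matplotlib 3.10.9 were used.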

Additional observations from a re-analysis of the deposited data

Results flagged for a closer look

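In 3 genes listed in both larval strains the prp-8 library lay on opposite sides of its gfp library in N2 and in smg-1, with 1 library per group, so the difference was not tested. C38C6.3 had a log2 ratio of 0.47 in N2 and -0.79 in smg-1. ZK84.1 had -0.22 in N2 and 0.81 in smg-1, and the hedgehog-related gene wrt-8 had -0.79 in N2 and 0.70 in smg-1. The gene npp-5 also had opposite signs, but it is listed at 0 with prp-8 in N2 while the pooled knockdown value is above 5 FPKM.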

How the results depend on the processing

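Under 6 alternatives 114 values were recomputed, and the alternative without the 8 disagreeing entries was chosen after seeing the data. Of these values, 102 kept their sign and stayed within 0.25 log2 (medians), 0.1 (correlation) or 1.5 times (counts). A further 12 moved and 0 reversed. Counts have no sign, and a change of pseudocount cannot change the sign of any gene's ratio. Most values could thus not reverse, and the 0 is no sign of stability. The tolerances stand in for a replicate spread, which 1 library per group cannot give. With a pseudocount of 0.1 FPKM the median was 1.04 for the higher list and -1.79 for the lower list. With 5 FPKM they were 0.30 and -1.07. Then 22 genes of the higher and 36 of the lower list were at least 2-fold below gfp, in place of 46 and 58. The 173 genes of the higher list at least 2-fold above gfp became 118 with 5 FPKM and 208 with 0.1 FPKM, both inside the tolerance of 1.5 times. A larger pseudocount shrinks every ratio by construction. The medians of the P450 and glucuronosyltransferase genes (1.75 and 0.48) and of the neuropeptide and chemoreceptor genes (1.91 and 0.48) moved likewise with pseudocounts of 0.1 and 5 FPKM. With the pooled gfp column, which runs higher, 166 genes of the higher list were at least 2-fold above gfp, 59 at least 2-fold below and 143 below in all. No paired analysis was possible because every group has 1 library, and for the same reason no library could be left out. Promoter motifs, planned as a gene feature, were not run, because no promoter sequences were used here. FPKM without depth limits what can be said of genes under about 1 FPKM.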

Other observations

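Other values of the lower list were alike in form. The unnamed gene F18E9.3 had 9.88 FPKM with prp-8, 9.21 with prp-6, 46.1 with prp-31 and 70.4 with gfp RNAi, and Y53F4B.23 had 0.933 FPKM with prp-8, 0.756 with prp-6, 7.95 with prp-31 and 13.1 with gfp RNAi. Of the 26 unnamed genes of the lower list, all 26 were at least 2-fold below gfp, beside 87.9% of the whole lower list. The lipid genes of the higher list were divided, with hacd-1 at 5.85-fold the gfp value, acs-20 at 1.04-fold and lips-7 at 0.382-fold. The genes sri-74 and nhr-220 were not described because their deposited intervals lie apart from the annotated genes of those names.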
